A study of Homo sapiens with 6 samples.

Results

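The mitochondrial ribosome was represented on the array by 55 genes whose current symbol begins with MRPL or MRPS followed by a digit, out of 6255 named genes. They occupied 67 spots: 43 genes had 1 spot and 12 had 2. By symbol, 32 belong to the large subunit and 23 to the small subunit. RNA was measured in SH-SY5Y, an established human neuroblastoma line with features of immature sympathetic neurons. The 3 GFP control samples carried the vector pEGF-C2 without an insert, and the 3 DN-TRF2 samples carried pIRES2-EGFP with an insert for dominant-negative TRF2 (TRF2 is a telomere-binding protein). All 6 samples were kept in geneticin at 500 µg/ml and their RNA was taken on day 7 after transfection, in 3 independent experiments processed in parallel. The groups differed in plasmid backbone as well as in insert, so these cannot be told apart, and wild-type TRF2 cells, which the series' design names, were not analysed here.

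Mitochondria keep a ribosome of their own, which translates the few messages of mitochondrial DNA into core subunits of the respiratory chain. Its proteins are all encoded in the nucleus, made in the cytosol and imported. Many descend from bacterial ribosomal proteins, and the others were added in the mitochondrial lineage. The large subunit forms peptide bonds and holds the exit tunnel, and the small subunit reads the message.

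Labelled cDNA from each sample was hybridized to 1 array, and the array medians of intensity (9169 spots) lay between 480 and 712. All 67 mitoribosomal spots lay above 10, a value read here as a stand-in for missing signal, on every array. Their median signal was 8.97 (log2 of intensity plus 50, after quantile normalization), against 9.30 over all spots. TRF2 itself (TERF2) was not analysed here, because 0 tested spots carried its name, so the labels were not checked against the targeted gene. Of 16 sympathoadrenal markers 9 were measured, among them DBH and CHGA, and each read above the median signal, a rough check only, since signals at different spots depend on the spot. Of 10 markers of substrate-adherent cells 8 were measured. Their mean level, as a deviation from each gene's own mean, ran from -0.21 to -0.033 on the control arrays and from 0.052 to 0.18 on the DN-TRF2 arrays (log2). Of these 8, 6 were higher in DN-TRF2 cells, VIM (-0.20) and FN1 (-0.029) were lower, and 0 passed. The sympathoadrenal markers, 6 of 9 higher and 0 passing, ran from -0.12 to 0.014 on control and from 0.026 to 0.076 on DN-TRF2 arrays. The part of these markers in the mitoribosomal values was not tested. Signal levels at different spots are not comparable, and each gene below is compared between arrays only.

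No mitoribosomal gene changed between the groups by the test applied. With the spots of a gene averaged and all 6973 features fitted in limma, 0 of 55 members passed at a Benjamini-Hochberg adjusted p under 0.05, and 0 (0% of all features) passed anywhere. All 55 adjusted p-values rounded to 1.00. At an unadjusted p under 0.05 there was 1 member, higher in DN-TRF2 cells, against 2.47% of all features higher and 1.00% lower (3.47% in either direction). With the replicate number as a block it was again 1 higher and 0 lower, against 3.43% and 1.94% of all features. Without single arrays the number of members at that p ran from 0 to 4. It was 0 without GFP control replicate 1, DN-TRF2 replicate 2 or DN-TRF2 replicate 3, against 4.20%, 1.71% and 1.78% of all features. It was 4 (7.27%) when GFP control replicate 3 was omitted, against 7.57% of all features. The 55 differences lay between -0.30 and 0.34 (log2 of DN-TRF2 over GFP control), and 20 were within 0.1 of 0. The median half-width of the 95% interval was 0.36, and every interval lay inside a change of 1 log2 unit in either direction. These intervals do not give the size of change that would pass after adjustment with 3 arrays per group. The lack of calls does not show that the groups are equal. In such bulk samples fewer cells of a kind and less RNA per cell cannot be told apart, and quantile normalization removes any change common to all RNA.

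**Figure D1:**
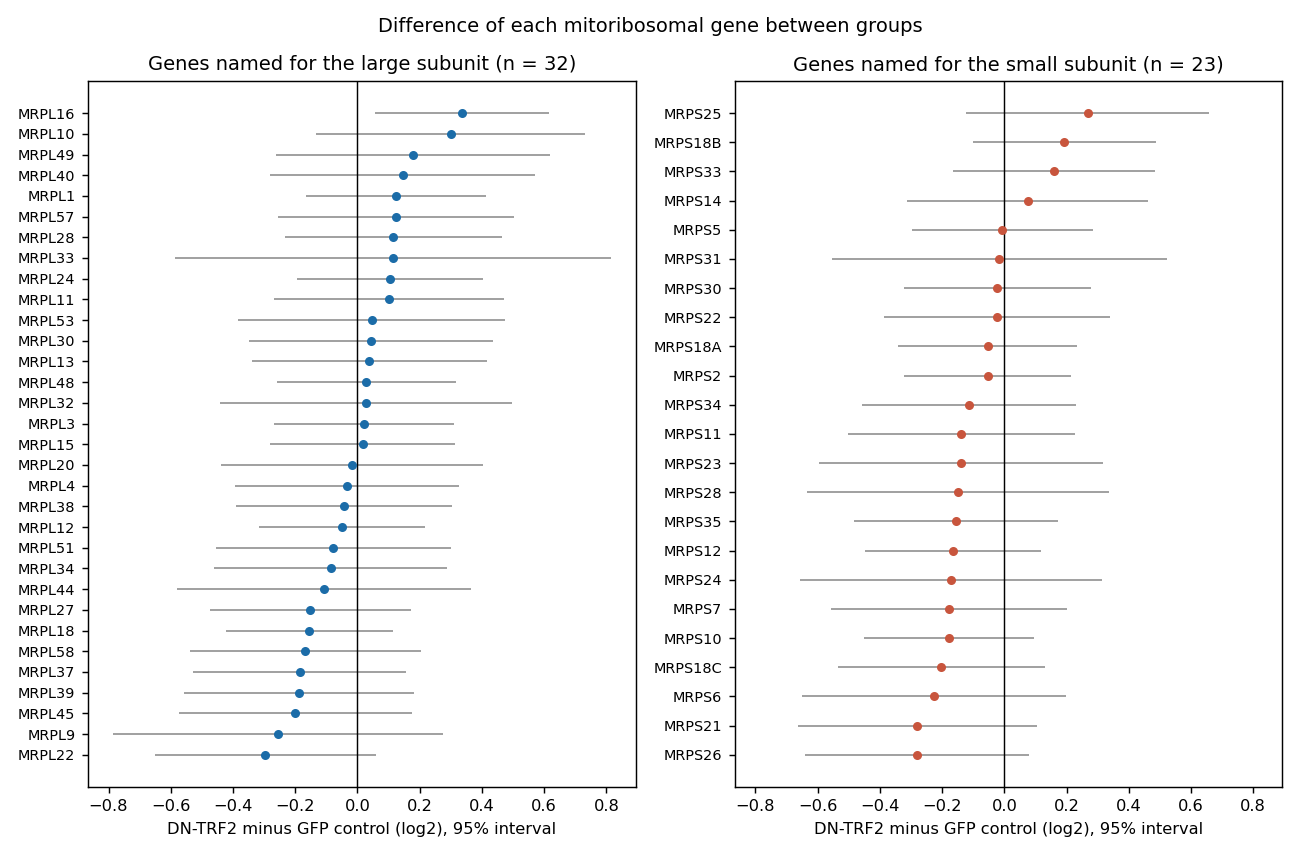
Difference of each of the 55 mitoribosomal genes between DN-TRF2 and GFP control arrays (x axis, log2) with limma's 95% interval (grey bars, n = 3 arrays per group), for genes named for the large subunit (left, 32) and the small subunit (right, 23). All points lie between -0.30 and 0.34, and the interval of 1 gene, MRPL16, does not reach 0.

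Members leaned to lower means, with most of the lean among genes named for the small subunit. In DN-TRF2 cells the mean was higher for 21 of the 55 and lower for 34, where 48.1% of all features were higher and 51.9% lower. The median difference was -0.045, against -0.0067 over all features. Leaving out GFP control replicate 1 gave -0.086, and leaving out GFP control replicate 2 gave -0.025. In the large subunit 17 of 32 were higher, with a median of 0.019. In the small subunit 4 of 23 were higher and 19 lower, with a median of -0.14. Whether the subunits differ was not tested, and 0 members of either passed. Omitting GFP control replicate 2 gave a small-subunit median of -0.038, with 16 of 23 lower; omitting DN-TRF2 replicate 1 or 3 gave -0.082 or -0.086. The large-subunit median turned negative when single arrays were left out: -0.039 without GFP control replicate 1, -0.023 with the third control array omitted, and -0.015 when DN-TRF2 replicate 2 was dropped.

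GFP control replicate 2 stood apart in these genes. It gave the highest value of the 6 arrays for 26 of the 55 members (47.3%), where 31.5% of all features were highest on it. The median deviation of the members from their own means was 0.13 there. It was -0.053 on GFP control replicate 1 and -0.039 on replicate 3, and -0.027, -0.00099 and -0.019 on DN-TRF2 replicates 1, 2 and 3. The DN-TRF2 arrays thus lay between the highest and lowest control array, and the groups overlapped. Over all features the same medians stayed between -0.0059 and 0.017. For cytosolic ribosomal protein genes, the counterpart in the cytoplasm, the 63 measured genes had a median deviation of 0.33 on GFP control replicate 2 and -0.25 on GFP control replicate 1. These genes leaned to lower means too, with 12 of 63 higher in DN-TRF2 cells and a median difference of -0.11. Without GFP control replicate 2, 43 of 63 were higher, with a median of 0.055.

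**Figure D2:**
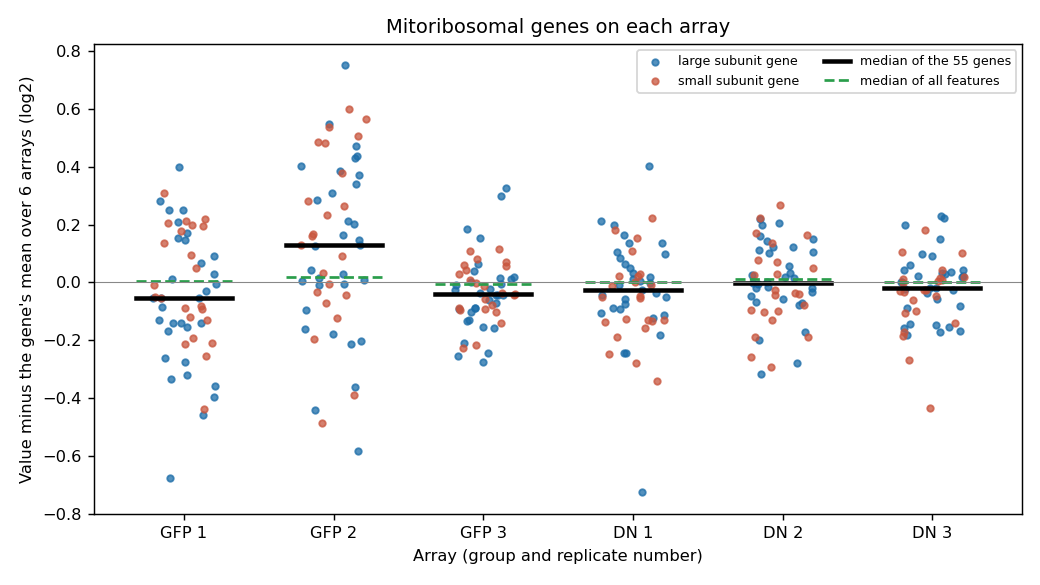
Value of each mitoribosomal gene on each array minus that gene's mean over the 6 arrays (y axis, log2); blue points are large-subunit and red points small-subunit genes, black bars the median of the 55 genes and green dashed bars the median of all features. The black bar stands at 0.13 on GFP control replicate 2 and between -0.053 and -0.00099 on the other 5 arrays.

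Single genes carried this array's excess to different degrees. On GFP control replicate 2, 11 members lay more than 0.5 (log2) above and 3 more than 0.5 below their mean on the other 5 arrays, against 8.03% and 9.44% of all features. MRPL33, a small protein of the large subunit, read 8.32 there, against 6.89 and 7.33 on the other controls and 7.52, 7.69 and 7.67 in DN-TRF2 cells. MRPS24, the counterpart of bacterial S3, read 9.57, against 8.71 to 8.98 elsewhere. MRPS31 read 10.22 against 9.22 to 9.83, and MRPL44, which carries a fold related to ribonuclease III, 8.42 against 7.61 to 7.92. In the opposite direction MRPL10, a stalk protein, read 7.66 against 8.19 to 8.42, and MRPS25 11.35 against 11.83 to 12.06. These genes, apart from MRPL10 and MRPS25, were chosen after their values were seen, as the members of largest excess on that array.

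Pairs of members showed little correlation over the arrays. The median correlation over the 6 arrays between pairs of mitoribosomal genes was 0.088, and 55.4% of pairs were above 0. Over all features the median was -0.0013. For cytosolic ribosomal protein genes it was 0.66. Without GFP control replicate 2 the values were -0.032 for mitoribosomal and 0.37 for cytosolic ribosomal genes. The points are 6 or 5 arrays that share their processing, so these correlations only describe the libraries. The median signal per gene was 8.87 for members and 10.67 for cytosolic ribosomal genes (log2). The part of signal level and spot noise in these correlations was not tested.

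Spread within the groups was larger among controls. The median SD of a member was 0.23 over the 3 GFP control arrays and 0.11 over the 3 DN-TRF2 arrays, and the control SD was the larger for 44 of 55 (80.0%), where it was larger for 78.3% of all features. MRPL10, for example, had an SD of 0.39 among controls and 0.012 among DN-TRF2 arrays. MRPL9 went the other way, chosen after its values were seen: it read 8.04 on DN-TRF2 replicate 1 and at least 8.83 on each of the other 5 arrays, with a difference of -0.26 ± 0.23 (SE).

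Among large-subunit genes of bacterial descent, MRPL16 had the smallest unadjusted p of all members. Its protein, the counterpart of bacterial L16, sits near the site where tRNAs enter the large subunit. MRPL16 read 7.61, 7.79 and 7.75 (log2) on GFP control replicates 1, 2 and 3 and 7.97, 8.10 and 8.08 on the DN-TRF2 arrays. Every DN-TRF2 value was above every control value. The spot was dim, with deposited intensities of 122, 147 and 205 in controls and 179, 229 and 265 in DN-TRF2 cells. The difference of 0.34 ± 0.12 (SE, n = 3 per group) had a 95% interval of 0.055 to 0.61 and an unadjusted limma p of 0.0241, with an adjusted p of 1.00 over all features. It was 0.36, 0.31 and 0.33 at replicate numbers 1, 2 and 3.

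MRPL22, which lines the peptide exit tunnel, had the largest negative difference. It read 7.52, 7.93 and 7.47 in controls and 7.25, 7.46 and 7.32 in DN-TRF2 cells. The groups were adjacent without overlap, and the highest value was that of GFP control replicate 2. The difference was -0.30 ± 0.16 (SE), and -0.15 without that array. MRPL18, a protein that binds ribosomal RNA, read 9.13, 9.19 and 9.04 in controls and 8.96, 8.98 and 8.96 in DN-TRF2 cells, a difference of -0.16 ± 0.12; it was chosen after its values were seen, because its groups did not overlap. MRPL10, which anchors the stalk that binds translation factors, differed by 0.30 ± 0.19, and by 0.083 without GFP control replicate 2. MRPL1, at the stalk on the opposite side of the subunit, differed by 0.12 ± 0.13, with 0.16 and 0.084 at its 2 spots, and by 0.055 without DN-TRF2 replicate 2.

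MRPL12 is the stalk protein itself and also binds the mitochondrial RNA polymerase. It read 11.27, 11.20 and 11.20 in controls and 11.11, 11.19 and 11.22 in DN-TRF2 cells. The groups overlapped, and the difference was -0.050 ± 0.12 with a 95% interval of -0.32 to 0.22. Its 2 spots gave -0.12 and 0.018.

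Of the 20 large-subunit genes of bacterial descent 12 were higher, with a median difference of 0.025. Of the 12 found only in mitochondrial ribosomes 5 were higher, with a median of -0.061. Both signs turned with single arrays: the first median was -0.018, -0.0043 or -0.0018 when GFP control replicate 1, GFP control replicate 3 or DN-TRF2 replicate 2 was left out, and the second was 0.017 without GFP control replicate 2, with 7 of 12 higher. Differences of the 12 ran from -0.20 for MRPL45, which lies at the membrane near the tunnel exit, to 0.18 for MRPL49. MRPL58, a peptidyl-tRNA hydrolase that became a ribosomal protein, differed by -0.17 ± 0.16, and MRPL44 by -0.11 ± 0.21. MRPL32, whose precursor is cut by the mitochondrial m-AAA protease before assembly, differed by 0.027 ± 0.21, and MRPL3, close to the site of peptide bond formation, by 0.022 ± 0.13.

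In the small subunit, 11 of the 12 genes that hold the place of a bacterial protein had a lower mean, with a median of -0.17. Of the 11 others, among which MRPS18A and MRPS18B were counted although they are related to a bacterial protein, 8 were lower, with a median of -0.024. Without GFP control replicate 2 the medians were -0.069 and -0.0078, and without DN-TRF2 replicate 2 the second was -0.10. MRPS14 was the member of the first class with a higher mean, at 0.074 ± 0.17. MRPS10 read 8.30, 8.47 and 8.42 in controls and 8.18, 8.21 and 8.26 in DN-TRF2 cells, without overlap. Its difference of -0.18 ± 0.12 had a 95% interval of -0.45 to 0.095. MRPS21 read 10.05, 10.63 and 10.18 in controls and 9.90, 10.11 and 10.01 in DN-TRF2 cells, with the highest value on GFP control replicate 2. The groups overlapped, and the difference of -0.28 ± 0.17 was -0.11 without that array.

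MRPS12 encodes the protein of the decoding centre whose bacterial counterpart is altered in streptomycin resistance. It read 10.51, 10.46 and 10.28 in controls and 10.29, 10.23 and 10.23 in DN-TRF2 cells, a difference of -0.17 ± 0.12. The control array of replicate 3 lay within the DN-TRF2 values. The signals of its 2 spots were 22.1-fold apart, with differences of -0.066 and -0.27. MRPS26, found only in mitochondrial ribosomes, read 8.52, 8.48 and 8.38 in controls and 8.43, 8.22 and 7.89 in DN-TRF2 cells. Its difference of -0.28 ± 0.16 was -0.13 without DN-TRF2 replicate 3, the lowest array.

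Small-subunit genes with higher means were few. MRPS25 read 11.93, 11.35 and 11.83 in controls and 12.02, 12.06 and 11.84 in DN-TRF2 cells, a difference of 0.27 ± 0.17 that was 0.093 without GFP control replicate 2, the lowest control. MRPS33 read 7.23, 7.42 and 7.38 in controls and 7.30, 7.69 and 7.53 in DN-TRF2 cells, a difference of 0.16 ± 0.14, and 0.067 without DN-TRF2 replicate 2.

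The related genes MRPS18A, MRPS18B and MRPS18C descend from a single bacterial protein and now occupy different places in the ribosome. MRPS18B read 10.06, 10.22 and 10.23 in controls and 10.42, 10.22 and 10.44 in DN-TRF2 cells, a difference of 0.19 ± 0.13. MRPS18C read 7.93, 7.95 and 7.58 in controls and 7.58, 7.53 and 7.73 in DN-TRF2 cells, a difference of -0.20 ± 0.15. MRPS18A read 7.09, 7.07 and 7.04 in controls and 7.07, 7.12 and 6.85 in DN-TRF2 cells, a difference of -0.054 ± 0.13 that was 0.025 without DN-TRF2 replicate 3. The groups overlapped for all 3 genes, and each interval reached 0. In structures of the ribosome MRPS18A and MRPS30 lie in the large subunit, and with both counted there the medians were -0.00013 for the large and -0.14 for the small subunit.

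**Figure D3:**
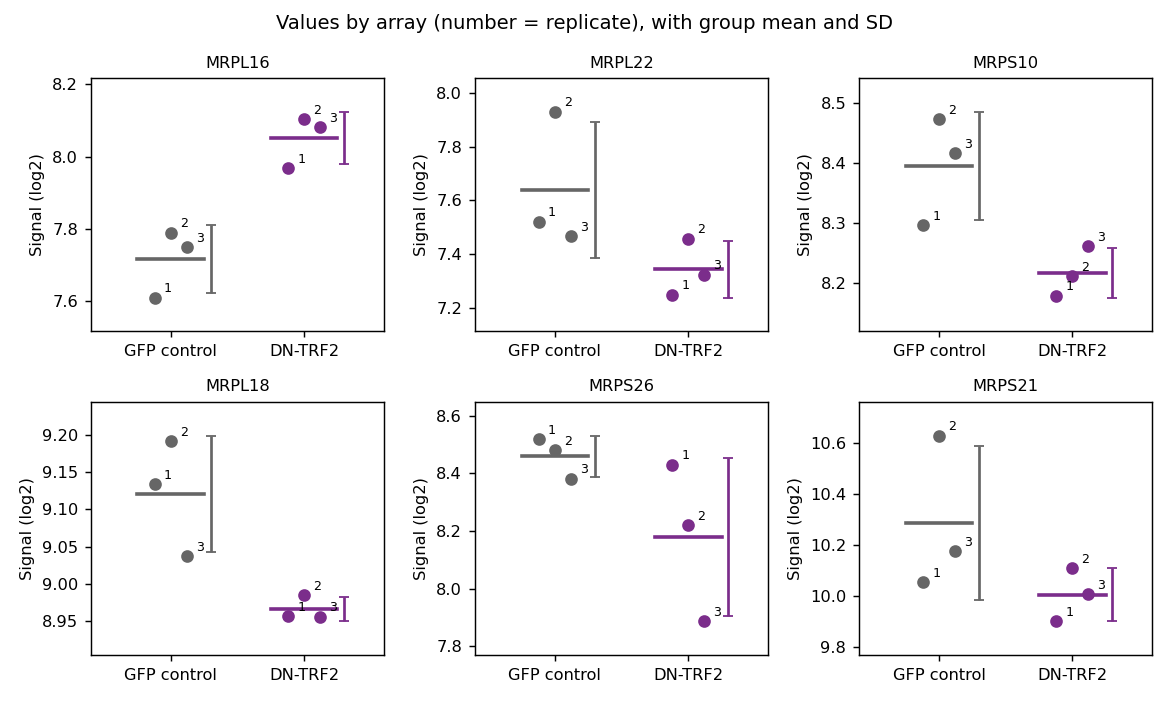
Signal (y axis, log2) of 6 mitoribosomal genes on each array; points are arrays labelled with their replicate number, horizontal bars group means and vertical bars 1 SD (n = 3), and each panel has its own y range. MRPL16 is higher on all 3 DN-TRF2 arrays, while MRPL22, MRPS10 and MRPL18 are lower on all 3, and MRPS26 and MRPS21 overlap.

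Groups without overlap were found for 1 member higher in DN-TRF2 cells, MRPL16, where 4.60% of all features were, and for 3 members lower, MRPL22, MRPS10 and MRPL18, where 4.29% were. In either direction 4 of 55 members compare with 8.89% of features. Taken spot by spot, 1 of the 67 member spots was higher without overlap (4.28% of all spots) and 7 were lower (4.43% of all spots), the latter also at 1 spot each of MRPL20, MRPL27, MRPS12 and MRPS21, which have 2.

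Compared at each replicate number, members were lower at number 2 and evenly split at the other numbers. Number 2 holds the control array on which members read high, with a median deviation of 0.13, against -0.00099 on DN-TRF2 replicate 2. At numbers 1, 2 and 3, 28, 19 and 29 of the 55 read higher with DN-TRF2, with median differences of 0.014, -0.20 and 0.0055. Over all features the medians were -0.013, -0.032 and 0.0024. The small subunit had 10, 7 and 10 of 23 higher, with medians of -0.041, -0.24 and -0.013, and the large subunit 18, 12 and 19 of 32, with medians of 0.070, -0.15 and 0.026. The same direction at all 3 numbers was seen for 4 members higher (11.5% of all features) and 8 lower (15.1% of all features). The 4 were MRPL16, MRPS25, MRPS33 and MRPL1. The 8 were MRPL22, MRPL18, MRPL27, MRPS26, MRPS21, MRPS10, MRPS12 and MRPS28.

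**Figure D4:**
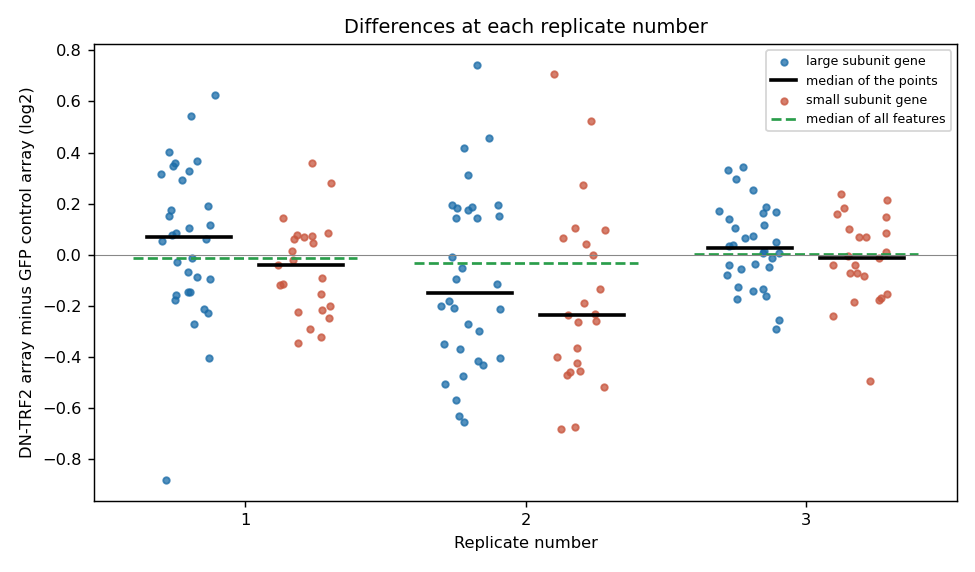
Difference between the DN-TRF2 array and the GFP control array of the same replicate number (y axis, log2) for each large-subunit (blue) and small-subunit (red) gene; black bars are medians of the points and green dashed bars medians of all features. At number 2 the medians are -0.15 and -0.24, while at numbers 1 and 3 they lie between -0.041 and 0.070.

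Genes with 2 spots show how far a value belongs to its spot. Of 12 such members 7 had the same sign at both spots, or 58.3%, against 48.4% of the 1057 genes with 2 spots. The median gap between the differences of the 2 spots was 0.19 for members and 0.17 for all such genes. MRPL20, at 0.20 and -0.23, and MRPL51, at 0.13 and -0.28, had the widest gaps. MRPL4, at -0.025 and -0.042, and MRPL24, at 0.074 and 0.13, had the closest. Mean signals of the 2 spots of a member lay a median of 2.90-fold apart, and those of all such genes 2.67-fold.

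Promoter sequences were read for what the members share outside the array. RefSeq windows of 250 bases before to 50 bases after the start (GRCh38.p14; the first listed for each gene) matched 51 of the 55 by symbol. MRPL10, MRPL13, MRPL15 and MRPS28 had none. Either strand of CCGGAAG, a core bound by ETS factors such as GABP, was in 24 of 51 windows (47.1%), against 10.7% of 27305 windows of all genes and 14.2% of 15843 of protein-coding genes. The YY1 core AAGATGGCG was in 8 (15.7%), against 1.85% of all windows and 2.74% of protein-coding ones. The letters GCATGCGC, which form part of the NRF1 site, were in 4 (7.84%), against 3.27% of all and 4.26% of protein-coding windows. The E-box CACGTG was in 5 (9.80%), against 7.43% and 8.88%. The TATA box letters TATAAA were in 0 of 51, against 11.95% of all and 9.63% of protein-coding windows. Overlapping matches are possible: CCGGAAG can run into AAGATGGCG over AAG, and AAGATGGCG into the reverse strand of GCATGCGC over GCG. A match marks letters, not binding.

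The windows of the 4 genes whose groups did not overlap are shown from 250 bases before to 30 bases after the start, 5′ to 3′ in the gene's direction, so that the sequences can be set beside the directions above. Capitals mark CCGGAAG, AAGATGGCG or GCATGCGC on either strand. The windows are MRPL16 (chr11:59810749-59811028, minus strand), MRPL22 (chr5:154940823-154941102, plus strand), MRPS10 (chr6:42217832-42218111, minus strand) and MRPL18 (chr6:159789562-159789841, plus strand).
MRPL16: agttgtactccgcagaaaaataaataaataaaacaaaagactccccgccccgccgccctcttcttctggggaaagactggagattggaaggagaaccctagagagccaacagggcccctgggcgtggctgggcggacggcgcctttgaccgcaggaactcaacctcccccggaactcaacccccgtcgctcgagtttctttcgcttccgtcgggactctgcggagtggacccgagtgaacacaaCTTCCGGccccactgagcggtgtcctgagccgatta
MRPL22: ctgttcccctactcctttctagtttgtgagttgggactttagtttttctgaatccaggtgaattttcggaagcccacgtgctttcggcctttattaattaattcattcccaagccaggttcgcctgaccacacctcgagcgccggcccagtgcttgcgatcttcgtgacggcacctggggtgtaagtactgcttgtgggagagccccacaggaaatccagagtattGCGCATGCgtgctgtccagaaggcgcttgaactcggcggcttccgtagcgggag
MRPS10: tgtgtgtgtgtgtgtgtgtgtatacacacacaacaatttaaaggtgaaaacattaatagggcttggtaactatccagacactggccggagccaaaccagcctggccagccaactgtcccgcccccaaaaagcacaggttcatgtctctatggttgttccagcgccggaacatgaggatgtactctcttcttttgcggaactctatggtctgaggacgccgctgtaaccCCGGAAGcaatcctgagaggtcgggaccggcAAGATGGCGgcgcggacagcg
MRPL18: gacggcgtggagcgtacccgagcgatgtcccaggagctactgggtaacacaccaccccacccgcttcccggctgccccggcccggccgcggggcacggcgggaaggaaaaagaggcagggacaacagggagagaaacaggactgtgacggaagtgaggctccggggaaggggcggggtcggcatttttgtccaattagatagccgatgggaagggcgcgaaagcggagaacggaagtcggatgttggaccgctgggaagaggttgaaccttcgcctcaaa
MRPL16, which was higher, holds the ETS letters, on the reverse strand, across its start. MRPS10, which was lower, holds them before its start, followed by the YY1 letters after the start. MRPL22 holds the NRF1 letters before its start and the YY1 letters beyond the stretch printed, and MRPL18 none of the 3 motifs in this window. By direction of the difference, 9 of 24 genes with CCGGAAG and 9 of 27 without it had a higher mean, with medians of -0.035 and -0.054. With AAGATGGCG 2 of 8 were higher, and without it 16 of 43.

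Other proteins that make, load or serve the mitochondrial ribosome were read from lists of related genes. In all 8 lists 0 genes passed over all features, in either direction. Of the 5 mitoribosomal proteins with names outside the MRPL and MRPS series 4 were measured, 2 of them higher, with a median of -0.015 that was 0.13 without GFP control replicate 2. DAP3, a GTP-binding protein of the small subunit, read 9.53, 9.38 and 9.96 in controls and 9.88, 9.99 and 10.04 in DN-TRF2 cells, with 1 control array inside the DN-TRF2 values. Its difference was 0.35 ± 0.17 (SE). PTCD3, also of the small subunit, differed by -0.20 ± 0.20.

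Translation factors had 4 of 7 measured genes higher, with a median of 0.12. Without GFP control replicate 2, 2 of 7 were higher and the median was -0.031, and without DN-TRF2 replicate 1 it was -0.012. MTRF1L, which releases finished chains at stop codons, differed by 0.28 ± 0.12, without overlap between groups, and MRRF, which recycles the ribosome afterwards, by -0.25 ± 0.17. The list of aminoacyl-tRNA synthetases, which charge the tRNAs, also held QRSL1, a subunit of a tRNA amidotransferase, at 0.30 ± 0.20. In this list 8 of 12 were higher, with a median of 0.024. That became 5 of 12 and -0.0089 without GFP control replicate 2, and 5 of 12 and -0.054 with arrays scaled by their medians. HARS2, for histidine, read 10.02, 10.05 and 10.21 in controls and 10.82, 10.37 and 10.53 in DN-TRF2 cells, without overlap. Its difference was 0.48 ± 0.15, with an unadjusted p of 0.0112 and an adjusted limma p of 1.00. RARS2, for arginine, differed by -0.26 ± 0.13, also without overlap.

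Assembly factors had 7 of 19 higher, with a median of -0.016 that was -0.067 without GFP control replicate 2. MPV17L2 differed by 0.64 ± 0.31 and TRUB2, a pseudouridine synthase, by 0.39 ± 0.17. For MPV17L2 the differences at replicate numbers 1, 2 and 3 were 0.78, 1.45 and -0.30, so they disagreed in sign. Genes of mitochondrial DNA and RNA had 7 of 11 higher, with a median of 0.012. There were 4 of 11 higher without GFP control replicate 1, with a median of -0.042, and 4 of 11 with median scaling, with a median of -0.019. MGME1, a nuclease of mitochondrial DNA, differed by -0.17 ± 0.15 and RNASEH1, which removes RNA from hybrids, by -0.091 ± 0.13.

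Genes of mitochondrial import had 11 of 21 higher, with a median of 0.036. The median was -0.048 without GFP control replicate 1, with 7 of 21 higher, and -0.016 or -0.036 when GFP control replicate 3 or DN-TRF2 replicate 2 was left out. TOMM70, a receptor of the outer membrane, read 9.42, 9.27 and 9.15 in controls and 9.70, 9.74 and 9.69 in DN-TRF2 cells, all above the controls. Its difference was 0.43 ± 0.13, with an unadjusted p of 0.00816 and an adjusted limma p of 1.00. TOMM22, the central receptor, differed by -0.24 ± 0.13 without overlap.

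Chaperones and proteases had 1 of 10 higher, with a median of -0.14. HSPD1, the chaperonin of the matrix, differed by -0.24 ± 0.14 without overlap and YME1L1, a protease of the inner membrane, by -0.32 ± 0.20. Without GFP control replicate 2, 3 of 10 were higher and the median was -0.098. Biogenesis regulators had 2 of 6 higher, with a median of -0.15. Omitting GFP control replicate 2 gave 3 of 6 higher and a median of -0.019. PPRC1, a coactivator related to PGC-1, differed by -0.29 ± 0.16 without overlap and GABPB1, a subunit of the ETS-family factor GABP, by -0.36 ± 0.28. With the replicate block the SE was 0.17 for PPRC1 and 0.13 for GABPB1. The unadjusted limma p of GABPB1, whose groups overlapped, was 0.23 without the block and 0.0283 with it, with an adjusted p of 0.89. With the block the unadjusted limma p also fell under 0.05 for DAP3 (0.0414), YME1L1 (0.0430) and TRUB2 (0.0435). Over all features 5.36% were under 0.05 with the block.

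**Figure D5:**
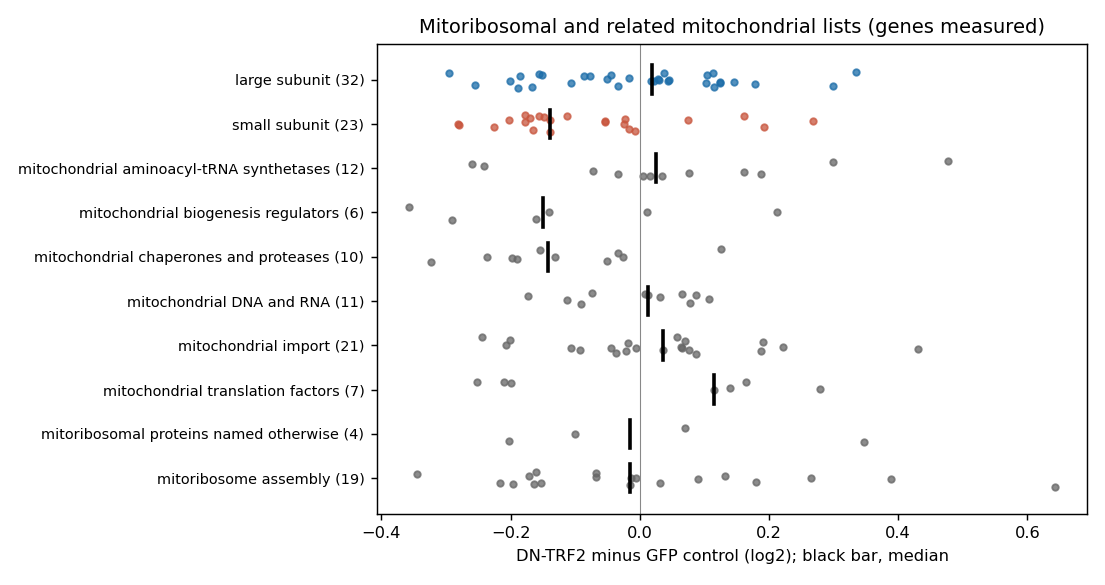
Difference between DN-TRF2 and GFP control arrays (x axis, log2) of each gene in the large and small mitoribosomal subunits and in 8 related lists; the number of measured genes is in brackets, points are genes and black bars medians. List medians lie between -0.15 and 0.12, and single genes spread on both sides of 0 in every list.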

How the data were processed

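Intensity values per spot, linear, were used as the authors deposited them for 6 arrays, each of 1 radiolabelled sample; about 5 µg of total RNA was labelled per sample, per the labels' protocols. How images were read, background was treated and arrays were scaled is not given in the sources used here. Of 9600 spots, 9169 were tested, without 384 blank positions (each 25th spot) and 47 spots that read 10 throughout. Symbols were updated by gene ID (8493 of 8517 annotated spots matched, all 67 mitoribosomal ones). An offset of 50 was added, log2 taken, arrays quantile-normalized and spots of one gene averaged, which gave 6973 features (6255 named genes; unnamed spots singly). Each was tested with limma 3.58.1 (R 4.3.3; lmFit, eBayes; two-sided; Benjamini-Hochberg, threshold 0.05), after the fit had been tested on simulated data. Errors beside differences are moderated SEs. Unless the block is named, they, the intervals and the p-values of single genes are from the fit without the replicate block. Differences on the offset scale understate changes of dim spots.

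The members, lists and tests were chosen with earlier results of these data known. Named genes were, per direction, the 6 members of smallest unadjusted p, the MRPS18 genes, MRPL12 and 2 genes of smallest p per related list; others are stated as chosen after their values were seen or fill a class description. Members with 3 or more spots, also in the rule, numbered 0. Same-numbered arrays deviated together (correlations of 0.39, 0.30 and 0.25 over spots, and 0.37, 0.22 and -0.078 over the members, where GFP control 2 and DN-TRF2 3 gave 0.24), so by the values over spots the replicate numbers were taken to pair the samples; the pairing comes from these values, with 3 independent experiments named in the labels. The number of arrays limits the precision.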

Additional observations from a re-analysis of the deposited data

How the results depend on the processing

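No member passed limma's adjusted p under any of the 15 alternatives fixed at the start (0 of 55 in each; 0 of 38 without the dimmest 25% of spots). With the replicate block, too, 0 passed, so the pairing changed no call. In this balanced design a block cannot alter mean differences, so the 21 members higher and the median of -0.045 were fixed in advance. It can alter errors: over all features the smallest adjusted limma p was 0.46 with the block. With it 374 features, in place of 242, had an unadjusted p under 0.05. Without the dimmest 25% of spots 13 of 38 members were higher and 2 had groups without overlap (5.26%, against 7.73% of all features); only members with 2 spots, a split chosen after seeing the data, gave 3 of 12 higher. Without each array in turn, members higher ran from 19 to 25, members without overlap from 6 to 10 (10.9% to 18.2%, against 13.6% to 25.9% of all features, with fewer arrays to overlap), and the small-subunit median from -0.15 to -0.038; it was -0.053 with array weights, where 7 of 23 were higher. With array weights the translation factors had 2 of 7 higher, with a median of -0.056. With the brightest spot per gene 2 members (3.64%), in place of 1, had an unadjusted p under 0.05, against 3.30% of all features. The large-subunit median was -0.0011 after correction for position on the array. MRPL12 turned to 0.018 at its brighter spot, and MRPS18A ran from -0.11 to 0.025. With median scaling 42.7% of all features were higher, and 21 members. The blank positions hold what was read as a stand-in value and so give no measure of signal over background.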
